A study of Mus musculus with 7 samples.

Results

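The acute phase and complement genes described here were 9 mouse genes: Saa3, Lcn2, Hp, C3, C4b, Cfb, C1ra, C1s1 and Serping1. They were 9 of the 32285 genes counted. They were listed by name after being selected on their expression difference between Gent+Fos OE and Gent in these same libraries, so that difference is given as a description and carries no test. RNA sequencing compared 4 Gent+Fos OE libraries with 3 Gent libraries. Every library was made from a pool of 12 utricle explants of wild-type (C57BL/6J in the methods) mice at P2, all damaged with 2 mM gentamicin, an aminoglycoside that kills hair cells, for 24 h. Gent+Fos OE explants also received AAV-PHP.eB carrying mouse Fos for 48 h, and collection was 5 days after injury. The CMV promoter of this virus is not restricted to 1 cell type, and an explant holds stroma, vessels and resident macrophages besides the sensory epithelium. The labels give gentamicin alone for Gent. The study also used a virus with a short hairpin RNA against Fos, and the names of the deposited Gent tables hold the letters sh, a usual short form of short hairpin. The paper, for its part, describes the comparison group as damaged controls and in 1 place as a group with control AAV. Whether Gent explants received no virus, a control virus or that one could not be settled from the sources, and every difference given here rests on the labels. No undamaged explants were compared.

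Total counts ran from 27879889 to 34335214 per library, and 17155 genes had enough counts to be tested. Fos, counted from the viral and the chromosomal copy together, was 151, 151, 167 and 149 CPM (counts scaled to a common library size) in Gent+Fos OE and 39.5, 40.6 and 34.6 CPM in Gent. It was higher in every treated library, by 2.01 ± 0.13 on the log2 scale (standard error, SE; edgeR quasi-likelihood test, adjusted p = 0.000142). Markers of hair cells and of supporting cells were present, with summed levels of 628 to 922 CPM and 1955 to 3418 CPM. One library of each group stood apart. Gent replicate 2 deviated from the mean of all libraries with gene length (Spearman rho across genes -0.60, against -0.31 to 0.45 in the other 6), and Gent+Fos OE replicate 2 departed from its group in several of the 9 genes, as given below. Pools of explants were the replicates, so p-values measure the spread between pools.

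Acute phase proteins are secreted proteins whose output rises after injury or infection, in the liver and also locally in stroma, epithelium and macrophages. Interleukin-1, interleukin-6 and TNF drive that response through NF-kappaB, STAT3 and C/EBP factors. Complement is a cascade of plasma proteases: in the classical pathway C1q binds its target, C1r activates C1s, and C1s cleaves C4 and C2, the alternative pathway amplifies through factor B, and both pathways cleave C3. Serping1 encodes C1 inhibitor, which blocks C1r and C1s. In sensory organs, locally made C3 and C1q are known from macrophages and glia.

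Promoter sequence was given in RefSeq (GRCm38.p6) for 5 of the 9 genes, Saa3, Lcn2, C3, C1ra and C1s1, in windows from 250 bases before to 50 after the transcript start. The windows were searched on both strands for 4 motifs of factors tied to this response, with overlaps allowed. The C/EBP motif TTGCNNAA was found in the windows of all 5 genes (for C1s1 in 1 of its 2 windows), while 10.8% of all 32851 promoters hold it. The sites of the 4 genes whose match lies before the start are printed because this motif was the one they shared, each 5′ to 3′ on the gene's strand with the match in capitals. The Saa3 and C1s1 matches lie on the opposite strand and so read as the reverse complement.
Saa3: ggtaagtgggaTTATGCAAgatcaaacagg
Lcn2: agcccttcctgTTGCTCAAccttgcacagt
C3: aggaaactatgTTGCGAAAttttgggcagt
C1s1: agagagaaTTAGGCAAtctcaaaattc
These sites lie at chr7:46715757-46715786 (Saa3, minus strand), chr2:32387937-32387966 (Lcn2, minus), chr17:57228163-57228192 (C3, minus) and chr6:124542583-124542609 (C1s1, minus). The first base of the match is at -99 in Saa3, -216 in Lcn2, -45 in C3 and -242 in C1s1, counted from the start. The starts used by RefSeq for Saa3, Lcn2 and C1ra, and 1 of the 2 for C1s1, lie inside the genes as counted. The Lcn2 site lies within an exon of the annotation in the files, and the Saa3 site lies outside the gene as counted. In C1ra the match begins at position 17 after the start. The AP-1 motif TGANTCA, to which Fos-Jun dimers bind, matched in none of the 5 genes and in 7.81% of all promoters. The NF-kappaB consensus also matched none, against 8.46% of all promoters. The STAT motif TTCNNNGAA matched C1ra alone (8.3% of all promoters). A match describes letters in a window and not binding, and the absence of one says only that these letters are not there. Saa1 and Saa2, the closest relatives of Saa3, also hold a C/EBP match, at -182 and -183, and yet stayed under 1 CPM in every library.

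All 9 genes had lower means in Gent+Fos OE, by 1.15-fold for C4b to 4.39-fold for Saa3, and 50.1% of tested genes had a log2 fold change below 0. In 8 of them every Gent+Fos OE library was below every Gent library, which was so for 12.2% of the 17155 tested genes, and Lcn2 was the exception. A call needed an adjusted p below 0.01 together with a log2 fold change beyond 0.25 in either direction. By edgeR 2 of the 9 were called, Saa3 and Cfb, where 0.28% of tested genes were called lower. DESeq2 called 7, all but Lcn2 and C4b, where it called 1.73% of its genes lower and 3.17% in either direction. With the trend with gene length removed, edgeR called 3, now with Hp, where 0.554% of genes were called lower. The median log2 fold change of the 9 was -1.02, and that of all tested genes was -0.00075. Nothing is read from these shares, since the genes were chosen with this contrast known. In tissue libraries, fewer cells that make a transcript and less transcript per cell cannot be told apart.

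**Figure D1:**
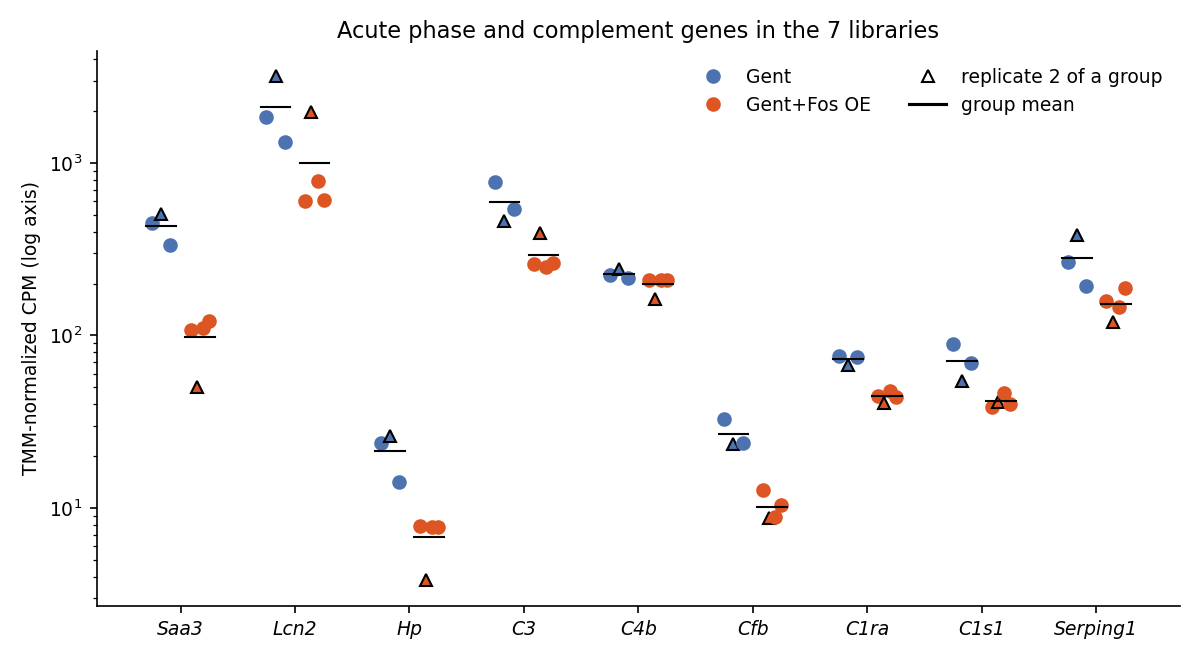
Level of each gene in the 7 libraries as TMM-normalized CPM on a log axis, with Gent and Gent+Fos OE libraries in different colours and replicate 2 of each group as a triangle. The groups overlap for Lcn2 alone, where Gent+Fos OE replicate 2 (1983 CPM) lies above 2 of the 3 Gent libraries, and they lie closest for C4b.

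Among the acute phase proteins, Saa3 (ENSMUSG00000040026, chromosome 7, 46711998-46715700, mm10) encodes serum amyloid A3, the form made outside the liver in stroma and macrophages. Its level was 108, 49.9, 111 and 122 CPM after AAV-Fos and 447, 506 and 333 CPM in Gent. No Gent+Fos OE library came within 211 CPM of a Gent library. The means were 97.6 ± 32.3 CPM (SD, n = 4) and 429 ± 88.1 CPM (SD, n = 3). On the log2 scale the difference was -2.13 ± 0.27 (SE), the largest in size of the 9.

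Hp (ENSMUSG00000031722, chromosome 8, 109575128-109579172) encodes haptoglobin, which binds free haemoglobin. It was 7.82, 3.80, 7.79 and 7.74 CPM in Gent+Fos OE against 23.8, 26.2 and 14.2 CPM in Gent. Of the 4 treated libraries, 3 were nearly the same and replicate 2 was clearly lower. The means were 6.78 ± 1.99 and 21.4 ± 6.34 CPM, and the log2 fold change was -1.66 ± 0.28.

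Lcn2 (ENSMUSG00000026822, chromosome 2, 32384633-32388252) encodes lipocalin 2, which withholds iron from bacteria by binding their siderophores. It was the most abundant of the 9 and the most variable, at 600.3, 1983, 786 and 611 CPM in Gent+Fos OE and 1856, 3197 and 1325 CPM in Gent. The groups overlapped, because Gent+Fos OE replicate 2 was above Gent replicates 1 and 3. The means were 995 ± 664 and 2126 ± 965 CPM, with a log2 fold change of -1.09 ± 0.42. Without that replicate it was -1.68, and without Gent replicate 2 it was -0.68.

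C3 (ENSMUSG00000024164, chromosome 17, 57203970-57228136), the protein on which the complement pathways converge, was 261, 394, 248 and 263 CPM in Gent+Fos OE and 781, 458 and 538 CPM in Gent. The groups were separate, although Gent+Fos OE replicate 2 came within 64 CPM of the lowest Gent library. The means were 292 ± 68.8 and 593 ± 168 CPM, and the log2 fold change was -1.02 ± 0.21.

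Cfb (ENSMUSG00000090231, chromosome 17, 34856374-34862518), the factor B protease of the alternative pathway, was at 12.7, 8.76, 8.80 and 10.3 CPM in Gent+Fos OE and 33.0, 23.6 and 23.7 CPM in Gent. All 4 treated libraries lay well below the 3 controls. The means were 10.1 ± 1.85 and 26.8 ± 5.39 CPM, a log2 fold change of -1.40 ± 0.18.

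The next gene along chromosome 17 is C2, which encodes the corresponding protease of the classical pathway and lies 86 bases from Cfb. It measured 62.4, 62.7, 67.2 and 89.7 CPM in Gent+Fos OE and 97.8, 84.2 and 97.0 CPM in Gent. Here the groups overlapped, through Gent+Fos OE replicate 4, and the log2 fold change of -0.40 ± 0.15 did not pass (edgeR adjusted p = 0.157).

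C4b (ENSMUSG00000073418, chromosome 17, 34728380-34743882), which carries the C4 function of the classical and lectin pathways, differed least between the groups. It was 211, 163, 209 and 210.1 CPM in Gent+Fos OE and 225, 243 and 215 CPM in Gent, so the nearest libraries of the groups were 3.69 CPM apart. The means were 198 ± 23.6 and 228 ± 14.5 CPM, and the log2 fold change was -0.20 ± 0.13. Reads that fit both C4b and its near-identical copy C4a were counted for neither. C4a itself was listed at 2.203 ± 0.509 CPM in Gent+Fos OE and 2.40 ± 0.781 CPM in Gent, a log2 fold change of -0.12 ± 0.31 (edgeR adjusted p = 0.834).

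The C1 proteases lie side by side on chromosome 6. C1ra (ENSMUSG00000055172, 124512405-124523443) was the steadiest of the 9, at 44.4, 40.6, 47.9 and 44.2 CPM in Gent+Fos OE and 76.3, 67.8 and 74.7 CPM in Gent. Its coefficient of variation was 6.68% and 6.20% within the groups, and its log2 fold change was -0.72 ± 0.12.

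C1s1 (ENSMUSG00000038521, 124530345-124542359) measured 38.7, 41.3, 46.2 and 40.0 CPM in Gent+Fos OE and 89.3, 54.6 and 69.1 CPM in Gent. The treated libraries lay close together, with a coefficient of variation of 7.94%, and the Gent libraries were spread (24.5%), with replicate 1 highest and replicate 2 lowest. The log2 fold change was -0.77 ± 0.16. The copies of these genes were hardly read: C1rb stayed under 1 CPM in every library, and C1s2 had means of 0.480 and 0.371 CPM.

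Serping1 (ENSMUSG00000023224, chromosome 2, 84765387-84775444), the inhibitor of these proteases, was 158, 119, 146 and 188 CPM in Gent+Fos OE and 266, 381 and 193 CPM in Gent. The groups were separate by a narrow margin, between Gent+Fos OE replicate 4 and Gent replicate 3. The means were 153 ± 28.4 and 280.2 ± 94.7 CPM, and the log2 fold change was -0.87 ± 0.22, so the inhibitor and its target proteases were lower side by side.

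Levels between genes were set on a scale per length, as FPKM (CPM divided by the exon length in kilobases). Lcn2 had a mean of 810.4 FPKM in Gent and 379 in Gent+Fos OE, and stood at the 99.8th percentile of tested genes. In Gent, Saa3 came next at 164 FPKM, followed by Serping1 at 121, C3 at 115 and C4b at 40.0 FPKM. Those 5 genes were above the 90th percentile of tested genes. The level of C4b lacks any reads that fit C4a as well. C1ra (24.5 FPKM), C1s1 (22.7), Hp (13.3) and Cfb (9.48) followed, and in this order Saa3, Serping1 and C3, C1ra and C1s1, and Hp and Cfb did not differ from the next beyond their spread. In Gent+Fos OE the order was the same but for Saa3, which at 37.4 FPKM stood below Serping1 (65.7) and C3 (56.7) and next to C4b (34.8). The 9 genes together held 0.281% to 0.483% of all counts in the Gent libraries and 0.145% to 0.285% in the Gent+Fos OE libraries, and these ranges met at Gent+Fos OE replicate 2, where Lcn2 gave 70.7% of the counts of the 9.

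Inside a group, some of the genes varied together and others apart. In Gent+Fos OE replicate 2, Saa3 was 0.89 and Hp 0.77 below their group means on the log2 CPM scale, while Lcn2 was 1.19 above. That library was the lowest of its group for 6 of the genes and the highest for Lcn2 and C3. In Gent, replicate 2 was highest for Saa3, Lcn2, Hp, C4b and Serping1 and lowest for the other 4, C3, Cfb, C1ra and C1s1.

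**Figure D2:**
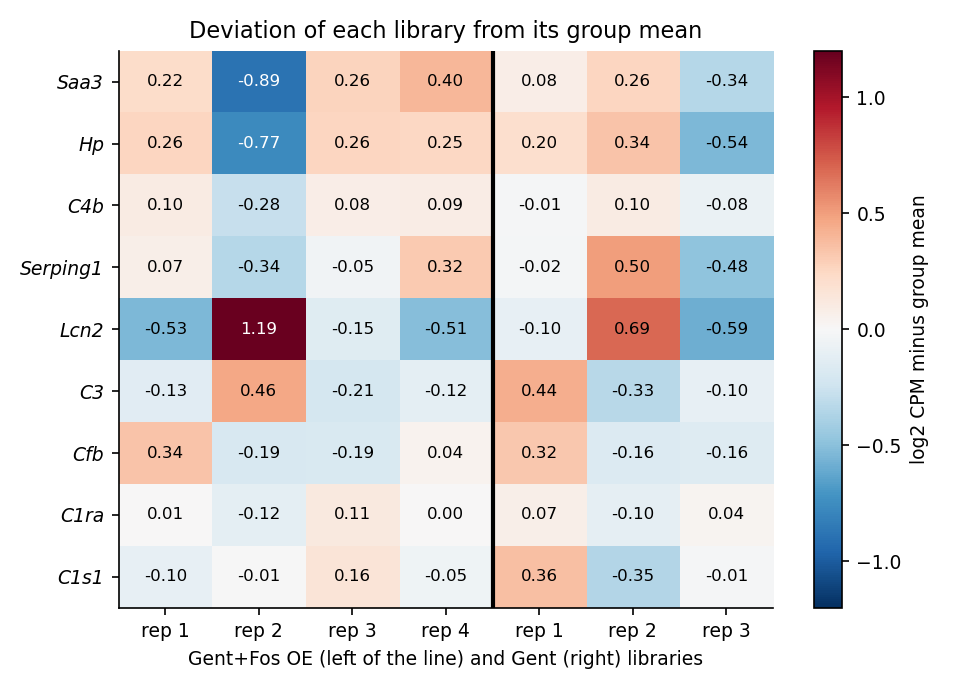
Deviation of each library from its own group's mean for each gene, in log2 CPM (colour scale), with Gent+Fos OE libraries left of the black line and Gent libraries right of it. Replicate 2 of Gent+Fos OE holds both the strongest positive value (Lcn2, 1.19) and the strongest negative one (Saa3, -0.89).

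Over the 7 libraries, these deviations correlated at r = 0.98 for Saa3 with C4b, 0.96 for Saa3 with Hp and 0.77 for Saa3 with Serping1. The same pairs gave 0.89, 0.94 and 0.95 without Gent+Fos OE replicate 2. C3 ran against these genes, at r = -0.75 with C4b, -0.64 with Saa3, -0.51 with Hp and -0.50 with Serping1. Without that library its values were -0.41, -0.05, 0.08 and -0.27. The C1 protease genes correlated at 0.69 with each other (0.91 without that library, 0.43 without Gent replicate 2). Lcn2 did not hold a place in this pattern: its r with Saa3 was -0.56 over all libraries, 0.83 without Gent+Fos OE replicate 2 and -0.84 without Gent replicate 2. These are descriptions over 7 points that share library depth and the length trend.

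The other genes of the acute phase and complement systems were taken from 7 hand-written lists holding 119 genes, of which 85 were tested. The log2 fold change was below 0 for 57 and above 0 for 28 of them, with a median of -0.24. The call was passed by 1 gene, Il1b, against 0.414% of all tested genes called in either direction. In 21 of the 85 every Gent+Fos OE library was below every Gent library, and in 4 every one was above, where these shares were 12.2% and 11.3% of all tested genes. An unadjusted p under 0.05 in edgeR, counted list by list below, was reached by 24.5% of all tested genes, 13.4% in the lower direction.

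Of 34 other acute phase proteins, 14 were tested, none was called, and their median log2 fold change was -0.37; 3 had no overlap, all lower, 5 had an unadjusted p under 0.05 in edgeR, and DESeq2 called 1, A2m. The most abundant per length were carriers of metal and matrix: the iron carrier Trf (444 ± 56.6 and 528 ± 38.9 CPM in Gent+Fos OE and Gent), the copper oxidase Cp (609 ± 69.1 and 723 ± 90.9 CPM), and Itih2, which stabilises hyaluronan. Their log2 fold changes were -0.25 ± 0.14, -0.25 ± 0.14 and 0.24 ± 0.16 (edgeR adjusted p = 0.278, 0.291 and 0.348). A2m, a broad protease inhibitor named after its values were seen, was 80.8 ± 19.5 against 166 ± 59.2 CPM, a log2 fold change of -1.04 ± 0.26 (edgeR adjusted p = 0.0699). The classic liver product Alb was at 0 counts in every library.

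Of 17 other genes of the classical and lectin pathways, 13 were tested and none was called in edgeR (median log2 fold change -0.18; 5 had an unadjusted p under 0.05), while DESeq2 called 3, the C1q chains. C1qa, C1qb and C1qc, which macrophages make, had means of 144 ± 26.9, 146 ± 24.5 and 138 ± 21.9 CPM in Gent+Fos OE and 239 ± 52.8, 271 ± 75.6 and 229.5 ± 43.0 CPM in Gent. In all 3 genes the 4 treated libraries were below the 3 controls. The log2 fold changes were -0.73 ± 0.18, -0.89 ± 0.19 and -0.73 ± 0.16 (edgeR adjusted p = 0.0697, 0.0458 and 0.0516).

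In the alternative and terminal pathways 4 of 9 genes were tested, none was called in edgeR (1 at an unadjusted p under 0.05), and the median was -0.25. Properdin (Cfp), which stabilises the convertase that factor B forms, was 50.8, 33.4, 39.4 and 52.5 CPM in Gent+Fos OE and 95.8, 119.9 and 73.5 CPM in Gent. It was lower in every treated library, by -1.13 ± 0.20 in log2 fold change (edgeR adjusted p = 0.0212; called by DESeq2). The C5 gene Hc (-0.10 ± 0.16, adjusted p = 0.726 in edgeR) and C8g (-0.28 ± 0.25, adjusted p = 0.489) were near 0.

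Of the 15 regulators, 12 were tested, none was called by edgeR (1 at an unadjusted p under 0.05) or DESeq2, and the median was -0.07. Clusterin (Clu), which holds back the terminal complex, was 891 ± 64.2 against 1126 ± 316 CPM (-0.34 ± 0.18, edgeR adjusted p = 0.262). Factor I (Cfi) had a log2 fold change of -0.40 ± 0.20 (edgeR adjusted p = 0.238).

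The receptors showed a mixed picture. None of the 8 tested complement receptors was called by edgeR (1 at an unadjusted p under 0.05) or DESeq2, and none was free of overlap. C3ar1 and C5ar1, the receptors of the cleaved fragments of C3 and C5, had log2 fold changes of -0.24 ± 0.17 and -0.47 ± 0.19 (edgeR adjusted p = 0.379 and 0.174). Among the 10 receptors of acute phase proteins, the median was -0.01, with 5 genes below 0 and 5 above. None was called by edgeR (6 at an unadjusted p under 0.05, 4 of them lower and 2 higher), while DESeq2 called 3, Tlr2, Fpr1 and Fpr2. The most abundant of them, the endocytic receptor Lrp1 and the lipid scavenger receptor Cd36, had log2 fold changes of 0.35 ± 0.23 and 0.13 ± 0.21 (edgeR adjusted p = 0.344 and 0.734), and both changed sign under other settings. Fpr1 and Fpr2 encode formyl peptide receptors of myeloid cells, and serum amyloid A is a ligand of the latter. Fpr1 was 43.5 ± 11.1 against 94.0 ± 24.3 CPM (-1.11 ± 0.23, edgeR adjusted p = 0.0427). Fpr2, named after its values were seen, was 7.07 ± 1.40 against 18.0 ± 5.29 CPM (-1.35 ± 0.23, edgeR adjusted p = 0.0184). Also named afterwards, the 2 higher genes were Lrp2 and Tlr4, at 0.60 ± 0.22 and 0.49 ± 0.20 (edgeR adjusted p = 0.146 and 0.178). Cd163, named likewise, was at 0.50 ± 0.30 (edgeR adjusted p = 0.31), with every Gent+Fos OE library above every Gent library.

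Of the 25 inducing cytokines and factors, 24 were tested with a median of -0.21. In 10 of them every Gent+Fos OE library was below every Gent library and in 1 above, 11 had an unadjusted p under 0.05 in edgeR, 10 of these lower, edgeR called 1 and DESeq2 called 6. Il1b, the cytokine that induces serum amyloid A and lipocalin 2, fell, from 5.07, 7.60 and 6.59 CPM in Gent to 1.89, 1.84, 1.77 and 1.82 CPM in Gent+Fos OE. Its log2 fold change was -1.81 ± 0.22 (edgeR adjusted p = 0.00316). The call was lost without any 1 of the 4 Gent+Fos OE libraries or without Gent replicate 3 (edgeR adjusted p up to 0.0211), with a log2 fold change of -1.95 to -1.68 when 1 library was left out. Named after its values were seen, Tnf was 17.1 ± 4.75 against 38.3 ± 4.51 CPM (-1.16 ± 0.21, edgeR adjusted p = 0.0241). The C/EBP gene Cebpd, also named afterwards, had a log2 fold change of -0.75 ± 0.21 (edgeR adjusted p = 0.0985). The most abundant genes of the list moved less: Il6st, the shared receptor of the interleukin-6 family, was at 0.17 ± 0.20, Tnfrsf1a at -0.28 ± 0.12 and Nfkbia at -0.21 ± 0.14 (edgeR adjusted p = 0.602, 0.189 and 0.38). Il6st and Nfkbia changed sign under other settings. The other C/EBP genes of the list, Cebpa and Cebpb, were at -0.19 ± 0.15 and -0.11 ± 0.17 (edgeR adjusted p = 0.46 and 0.692). Stat3, Nfkb1 and Rela were at 0.13 ± 0.13, -0.13 ± 0.12 and -0.25 ± 0.14 (edgeR adjusted p = 0.566, 0.518 and 0.304). These genes too were named after their values were seen, and the groups overlapped in each of them.

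Macrophage markers moved in the same direction as the 9 genes. All 12 were tested, 11 were lower in Gent+Fos OE with a median log2 fold change of -0.65, 7 were free of overlap and 2 were called (50.1%, 12.2% and 0.28% of all tested genes in this direction), Cd14 (-1.15 ± 0.17, edgeR adjusted p = 0.00847) and Fcgr1 (-1.25 ± 0.18, edgeR adjusted p = 0.00771). Both calls were lost without any 1 Gent+Fos OE library or Gent replicate 3, and that of Fcgr1 also without Gent replicate 1 (edgeR adjusted p up to 0.0472 and 0.0439). Their summed level was 2927 to 4600 CPM in Gent+Fos OE and 4797 to 6589 CPM in Gent, and none was at 0. Their part in the lower levels of the 9 genes and of the C1q chains was not tested.

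Neutrophil markers were low, at 7.35 to 11.2 CPM summed over 12 genes in Gent+Fos OE and 15.5 to 34.8 CPM in Gent, with 5 tested, all 5 lower and none called in edgeR (4 at an unadjusted p under 0.05; DESeq2 called 1, Ltf). Of the defining neutrophil genes, the granule genes Mpo and Elane had at most 2 counts in any library, and S100a9, a calprotectin subunit of the cytosol, had 125 counts in Gent replicate 1, 12 in Gent replicate 3 and 0 in the other 5 libraries. Named after their values were seen, the granule gene Ngp had 139 counts in Gent replicate 1 and at most 4 in any other library, and Ltf, which encodes lactoferrin, had 161, 90 and 44 counts in Gent and 6 to 25 in Gent+Fos OE. The groups did not overlap for Ltf, and its log2 fold change was -2.60 ± 0.54 (edgeR adjusted p = 0.0427), larger in size than that of any of the 9 genes. The part of these markers in the values of Lcn2 and Hp, which neutrophils also store, was not tested. Hepatocyte markers summed to 0.929 to 2.17 CPM in all libraries. Mesenchyme markers overlapped, at 9424 to 14746 CPM in Gent+Fos OE and 12261 to 15570 CPM in Gent (7 of 12 lower, none called by edgeR, 2 at an unadjusted p under 0.05, none by DESeq2). Endothelium markers were at 135 to 183 against 149 to 213 CPM. Supporting cell markers moved both ways, with 6 of the 10 tested above 0, 4 below and a median log2 fold change of 0.04. Their sum was 2467 to 3418 CPM in Gent+Fos OE and 1955 to 2372 CPM in Gent, and much of that gap was Otog, at 1065 ± 256 against 447 ± 17.6 CPM. Otog was called higher (1.25 ± 0.18, edgeR adjusted p = 0.00851), a call lost without any 1 library but Gent replicate 2 (edgeR adjusted p up to 0.0415) and with the length trend removed, where the log2 fold change was 0.94 (edgeR adjusted p = 0.0151). In this list 5 genes had an unadjusted p under 0.05 in edgeR, 4 of them higher, and DESeq2 called 3. Tectb, named like Otog after its values were seen, was 58.1 ± 18.3 against 152 ± 55.0 CPM without overlap (-1.39 ± 0.27, edgeR adjusted p = 0.0348). Hair cell markers were at 732 to 922 against 628 to 783 CPM in sum. Of the 11 tested, 3 were without overlap and 4 had an unadjusted p under 0.05, all higher, none was called by edgeR and 1 was called by DESeq2. Their median log2 fold change was 0.19, and -0.00045 with the length trend removed.

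The chromosomal neighbours of the 9 genes were read from the same comparison. Of 38 other genes within 50 kb, 29 were tested with a median log2 fold change of -0.12, of which 22 were below 0 and 7 above (50.1% of all tested genes were below 0). The call was passed by 1, where 0.414% of all tested genes passed it. That gene was Ube2l6, the conjugating enzyme of the interferon-induced modifier ISG15, which lies 23384 bases from Serping1. It was 25.3 ± 2.66 against 49.8 ± 0.931 CPM (-0.98 ± 0.13, edgeR adjusted p = 0.00446). The call was lost without any 1 Gent+Fos OE library or Gent replicate 3 (edgeR adjusted p up to 0.0315).

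The genes whose log2 CPM over the 7 libraries was most like the mean of the 9, among 12038 other genes averaging 5 CPM or more, were Myd88 (r = 0.99), Tnfaip8 (0.99), Calhm5 (0.99), Phf11b (0.98), Lgals9 (0.98) and Oas1g (0.98). Since the 9 genes were chosen for their difference between the groups, likeness to their mean selects genes with such a difference, and the values of these 6 are given with no test. Myd88, the adaptor of Toll-like and interleukin-1 receptors, had a log2 fold change of -0.63, Lgals9, which encodes galectin-9, of -1.38, and Phf11b of -1.75. Oas1g, with -1.85, belongs to a family of close copies, and the loss of reads that fit several of them was not tested. Once the group means were removed, the most similar genes were Lrrc32 (r = 0.99), Fabp7 (0.97), Gpr153 (0.96), Hmga1b (0.95), Smpdl3b (0.95) and 1600012H06Rik (0.95). None of them was called by edgeR and none was shared with the first group. They too were picked as the highest of 12038 genes over 7 libraries, so a high r follows in part from that choice. The mean they match averages genes that varied apart, such as Saa3 (-0.89) and Lcn2 (1.19) in Gent+Fos OE replicate 2.

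The log2 fold changes of the 9 genes stayed below 0 in all 135 values from 15 alternatives, while the number called ran from 0 to 7. Left-out libraries moved Saa3 between -2.29 and -1.92, Cfb between -1.53 and -1.22 and C1ra between -0.77 and -0.68. The widest range was that of Lcn2, and C4b stayed between -0.33 and -0.12 over the alternatives.

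**Figure D3:**
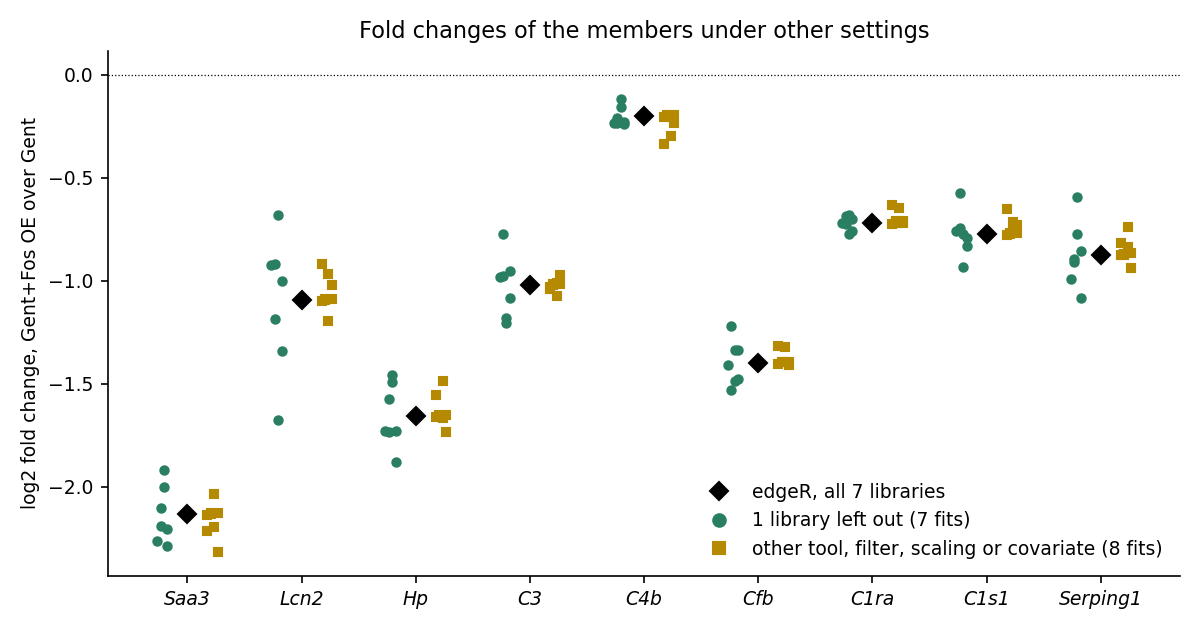
Log2 fold change of each gene (Gent+Fos OE over Gent) in the edgeR comparison of all 7 libraries (diamonds), in 7 comparisons that each leave out 1 library (circles) and in 8 with another tool, filter, scaling or covariate (squares). All values lie below the dotted line at 0, and Lcn2 spreads most, from -1.68 to -0.68.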

How the data were processed

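The 9 genes and all lists were chosen with earlier results of these data known. Per the file headers, the authors counted reads per gene with featureCounts 2.0.6 on mm10, without strand and without reads of several places or genes, each read of a pair on its own; the deposited counts were not normalized. Per the labels, reads were trimmed with Trim Galore 0.6.10 and aligned with HISAT2 2.2.1. The methods name mm39 instead and 3 replicates per condition, where the labels list 4 and 3. Without strand, reads of antisense genes cannot be told apart; C1s1 shares 18.4% of its exonic bases with such a gene, which had no counts.

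Symbols came from GENCODE vM39 where RefSeq (GRCm38.p6) has them at the same place (24497 of 32285 genes). Genes kept by filterByExpr (17155) were TMM-normalized and compared by edgeR 4.0.16 quasi-likelihood tests in R 4.3.3 with Benjamini-Hochberg adjustment. A call needed an adjusted p below 0.01 together with a log2 fold change beyond 0.25 in either direction. SEs are the log2 fold change divided by the root of F. CPM are TMM-normalized, and deviations use a prior count of 2. The alternatives were DESeq2 1.42.0, limma 3.58.1 voom, RLE scaling, other filters, removal of the length trend, replicate blocks and leaving out each library. The scripts were tested on simulated data. Genes named were the 9, the 3 highest by FPKM and all called genes of each list, close paralogs, called neighbours and the 6 most similar by each measure, besides those said to be named afterwards; results of some of these are not reported here. Replicates differed by more than sampling noise.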

Additional observations from a re-analysis of the deposited data

Results flagged for a closer look

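In the 4 Gent+Fos OE libraries, the gap of the highest or lowest library from the nearest other was divided by the range of log2 CPM. This ratio was above Dixon's critical value at the 95% level for 8 of 55 genes examined. Chance gives about 1 in 20 such groups. Gent+Fos OE replicate 2 was the library concerned for 4 of the 9 acute phase and complement genes. It was low for Saa3 (49.9 CPM, others 108 to 122), Hp (3.80 CPM, others 7.74 to 7.82) and C4b (163 CPM, others 209 to 211), and high for C3 (394 CPM, others 248 to 263). Gent+Fos OE replicate 3 was high for Fos (167 CPM, others 149 to 151). Replicate 1 was low for Cp (506 CPM, others 634 to 655) and C1s2 (0.195 CPM, others 0.551 to 0.602). Replicate 4 was high for Tnfrsf1a (139.7 CPM, others 133 to 134).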

How the results depend on the processing

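Over the whole table edgeR called 71 genes, and this number was 600 with DESeq2, 204 without a filter on low counts, 130 with the length trend removed, 0 with the replicate number as a block (3400 genes at an unadjusted p under 0.05), and 5 (without Gent+Fos OE replicate 3) to 138 (without Gent replicate 2) when 1 library was left out. Of the 9 genes, 2 were called, and this became 7 with DESeq2, 5 without a filter, 0 with the replicate block (8 at an unadjusted p under 0.05) and 0 to 5 when 1 library was left out. It was 0 without Gent+Fos OE replicate 1, 3 or 4 or Gent replicate 3, 1 without Gent+Fos OE replicate 2, and 5 without Gent replicate 2. Of the companion genes, 1 was called, and this became 14 with DESeq2, 6 without a filter, 2 with the length trend removed, 0 with the replicate block (29 at an unadjusted p under 0.05) and 0 to 3 when 1 library was left out. With the block and the length trend removed together, 48 genes were called, 34 of them among the 71, with 2 of the 9 genes and 1 companion gene. The cause of these changes was not tested. The replicate numbers did not pair the libraries: same-numbered libraries correlated at 0.097, -0.066 and 0.066 in their deviations over genes, and not every library correlated best with its own number. Of 824 log2 fold changes of 55 named genes under 15 alternatives, 12 reversed. With the length trend removed, Lrp1 was -0.055 and Il6st -0.10; with the block added, Lrp1 was -0.080, Il6st -0.063 and Nfkbia 0.0029. With the block alone Cd36 was -0.027. With 1 library left out, Cd36 ran from -0.052 to 0.24, Il6st from -0.042 to 0.42, C4a from -0.30 to 0.17 and Lrrc32 from -0.37 to 0.11. Of the 9 genes, Hp had the fewest counts in a library, 124, and C1s2, C4a and Il1b had fewer still.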
